A study of Mus musculus with 4 samples.

Results

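The circadian clock and output genes described here are Arntl, Clock, Cry1, Nfil3, Per1, Per2, Dbp, Tef, Nr1d2 and Bhlhe40. They were taken by symbol or synonym from the probe sets annotated to exactly 1 gene, which gave 13 probe sets for 10 of the 8251 genes with such probe sets. The rule takes them by name and uses no signal, but the list was drawn up with earlier results of these data known. The study compared ventricles of ERRa ko mice, which lack the orphan nuclear receptor ERRα (gene Esrra), with ventricles of ERRa wt mice. All animals were at baseline, with no pressure overload. Each genotype had 2 arrays, and total RNA of 1 sample was hybridised to each oligonucleotide array. The labels used here give no age, sex, strain, time of day, light schedule or feeding state, and they do not say how the allele was made or whether the numbered samples were separate animals. If they were not, the p-values measure a technical spread only. Each value is a linear signal scaled by array.

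The mammalian clock is a feedback loop of transcription that runs in heart muscle as in most tissues. CLOCK and ARNTL, also called BMAL1, bind E-box elements as a pair and activate the Per and Cry genes, the Rev-erb receptors Nr1d1 and Nr1d2, the Dec repressor Bhlhe40 and the output factor Dbp. PER and CRY proteins inhibit CLOCK and ARNTL, while Rev-erb and ROR receptors compete for elements in genes such as Arntl and Nfil3. In peripheral tissues of the mouse, transcripts of Dbp, Tef, Nr1d2, Per1, Per2 and Bhlhe40 rise in the later part of the day and around dusk, and those of Arntl, Clock, Cry1 and Nfil3 peak in the night or around dawn. The first set is called the Dbp arm below and the second the Arntl arm. An array's position on these opposed arms bears on the time at which its tissue was taken.

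The elements through which the loop runs were looked up in the RefSeq promoter windows of assembly GRCm38.p6, each from 250 bases before to 50 bases after a transcript start. Of the 10 genes, 8 had windows, 13 windows in all, and Per2 and Bhlhe40 had none in the table. The E-box CACGTG, which reads the same on both strands, lay in 4 of the 13 windows and in 3 genes, against 7.15% of all 32851 windows. The D-box, searched on both strands as TTATGTAA, TTATGCAA or TTACGTAA, lay in 1 member window and in 1.78% of all windows. The core of the ROR and Rev-erb element, TAGGTCA on either strand, lay in 2 member windows and in 2.61% of all windows. An ERR element written TNAAGGTCA lay in 0 of the 13 windows and in 1.28% of all windows. It shares the letters AGGTCA with the ROR core. The matches are shown because members of the loop act on each other through elements of these kinds. They come from a search for letters only, and binding at them was not measured. Each is a stretch of 30 bases, 5′ to 3′ on the gene's strand, with the matched letters in capitals.
Per1 E-box, chr11:69098771-69098800, plus strand: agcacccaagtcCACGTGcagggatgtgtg
Per1 D-box, chr11:69098914-69098943, plus strand: agggcctggcaTTATGCAAcccgcctccca
Tef E-box of the upstream start, chr15:81802534-81802563, plus strand: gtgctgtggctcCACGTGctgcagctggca
Tef E-box of the downstream start, chr15:81811264-81811293, plus strand: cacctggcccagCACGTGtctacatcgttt
Cry1 E-box, chr10:85185097-85185126, minus strand: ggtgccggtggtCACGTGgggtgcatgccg
Arntl ROR core, chr7:113207530-113207559, plus strand: aaggcagaaagTAGGTCAgggacggaggtg
Nfil3 ROR core, read here as TGACCTA, chr13:52981033-52981062, minus strand: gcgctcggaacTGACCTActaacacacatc
The Per1 E-box began 166 bases before a Per1 transcript start and the D-box 24 bases before the same start, so both elements of the loop lay in 1 window. The Cry1 E-box began 60 bases before its start. The Tef E-boxes began 127 and 138 bases before their starts. The Nfil3 core began 12 bases before the start, and the Arntl core lay past the start, from base 31 of the transcript. The windows of Clock, Dbp and Nr1d2 held none of these letters, which says only that the letters are not in these windows.

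The labels were checked on the targeted gene and on tissue markers. Both Esrra probe sets were lower in knockout. The weaker gave 83.6 and 55.2 there and 2688 and 2828 in wild type, and the stronger 922 and 1050.2 there and 8598 and 8039 in wild type. All 8 measured markers of ventricular cardiomyocytes were high, with probe set means of at least 15030. Of 4 brain and pineal genes, looked up as a check of absence, 2 were kept. The stronger Aanat probe set gave 1701 and 3439 in knockout and 3533 and 2328 in wild type. The stronger Gfap probe set gave 888 and 746 against 911 and 983, and Vip and Avp were under the filter. A signal of this size alone therefore does not show that a gene is expressed. Spearman correlations between arrays ran from 0.927 to 0.941, across probe sets that are not independent replicates. The 5′ to 3′ ratio of the β-actin control was 0.694 and 0.813 in knockout and 0.966 and 0.909 in wild type.

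No clock or output gene passed the test between genotypes. Of the 13 probe sets, 9 passed the filter on low signals (a mean over the 4 arrays of at least 350.6) and stood for 8 genes. With limma's moderated test and Benjamini-Hochberg adjustment over all 7453 probe sets kept, 0 of the 9 had an adjusted p under 0.05, against 0.0134% of all probe sets, which was 1 probe set of Esrra. The stronger probe set of Esrra, the targeted gene, missed the threshold at a log2 difference of -3.08 (limma adjusted p = 0.179). Missing the threshold therefore does not show that a gene was unchanged. At an unadjusted p under 0.05 the count was again 0 of 9, against 6.79% of all. A difference of at least 1.5-fold without overlap of the groups was met by 0 of the 9 and by 11.0% of all. The groups did not overlap for 3 of the 9, 1 higher and 2 lower in knockout, beside 37.4% of all probe sets, so this count was near the background. The median log2 difference, knockout minus wild type, was 0.08 over the 8 genes with the strongest probe set of each, and 0.01 over all 5653 genes. Fewer cells of a type and less RNA per cell cannot be told apart in these bulk samples.

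**Figure D1:**
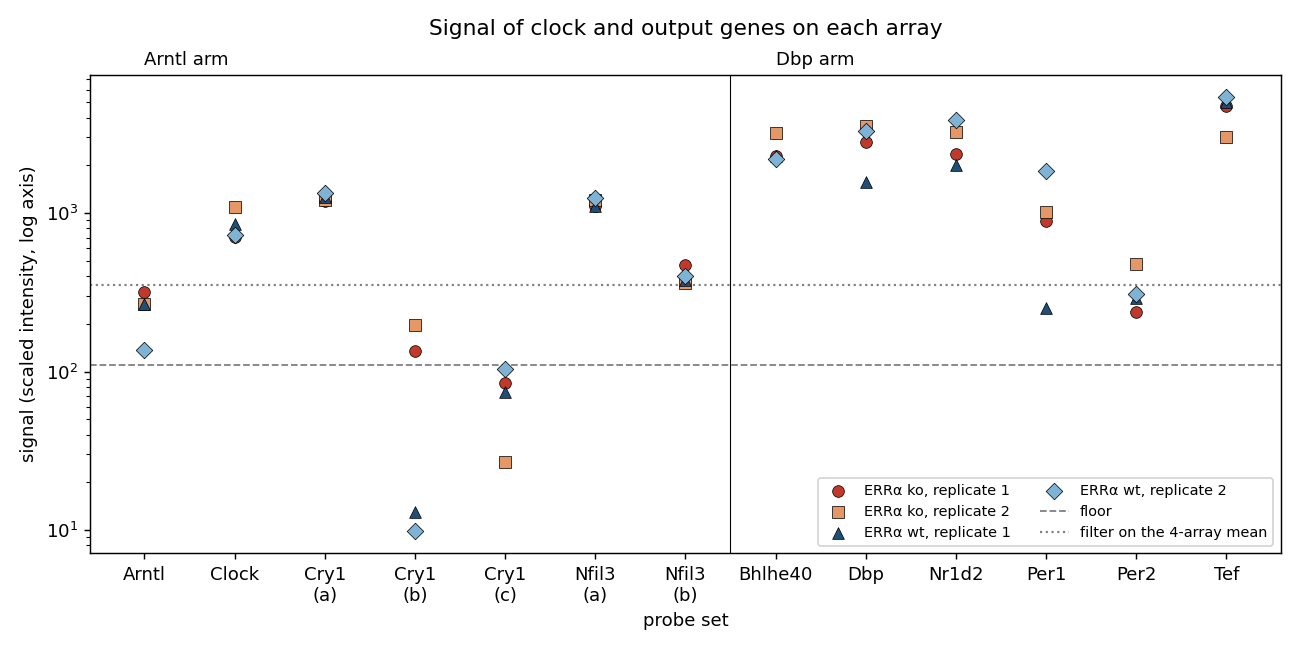
Scaled signal (log axis) of the 13 probe sets of clock and output genes on each of the 4 arrays, with letters for probe sets of the same gene from strongest to weakest. The dashed line is the floor at a signal of 110 and the dotted line the filter on the mean over the arrays at 350.6. The Per1 points reach from 250 to 1829, both on wild-type arrays, and the strongest Cry1 points almost coincide.

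Per1 encodes a PERIOD protein of the inhibitory limb of the loop, and its transcript also answers to glucocorticoids and cAMP signalling. Its probe set 93619_at gave 250 on wild-type replicate 1 and 1829 on wild-type replicate 2, with 888 and 1022 on the knockout arrays. Both knockout values lay between the wild-type values, so the groups overlapped. The wild-type arrays stood 7.31-fold apart and the knockout arrays 1.15-fold. The group means were 955 ± 94.8 in knockout and 1039 ± 1116 in wild type (SD, n = 2 each). The log2 difference was 0.50 (SE 0.97, 95% interval -2.08 to 3.07, limma adjusted p = 0.937). It turned to -0.94 without wild-type replicate 1 and was 1.93 when wild-type replicate 2 was left out, so the direction of Per1 between genotypes rested on which wild-type array was used. Only 0.161% of all probe sets kept had a gap between the wild-type arrays as large as that of Per1.

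Per2, the second PERIOD gene, did not share this gap. Its probe set 93694_at gave 238 and 475.5 on the knockout arrays and 291 and 310 on the wild-type arrays. The wild-type values lay inside the range of the knockout values, and here the knockout arrays were the ones apart, by 2.00-fold. Its mean of 329 was under the filter, so it was not part of the main test.

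Dbp encodes a bZIP factor that binds D-boxes and is among the transcripts with the widest daily swing in peripheral tissue. Its probe set 160841_at gave 1569 on wild-type replicate 1 and 3299 on wild-type replicate 2, and 2789 and 3518 in knockout. Wild-type replicate 1 was the lowest array, and the other 3 lay close together. The wild-type arrays stood 2.10-fold apart, a gap that 8.01% of all probe sets matched, and 2.28% of those in the same bin when probe sets are ranked by signal into 5 equal bins. The means were 3154 ± 515 in knockout and 2434 ± 1223 in wild type, with a log2 difference of 0.46 (SE 0.42, 95% interval -0.65 to 1.57, limma adjusted p = 0.848). The difference was -0.075 without wild-type replicate 1 and 1.00 when wild-type replicate 2 was left out.

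Nr1d2 encodes REV-ERBβ, a haem-binding repressor of genes with ROR elements. Its probe set 99076_at gave 2004 on wild-type replicate 1, 3846 on wild-type replicate 2, and 2360 and 3269 in knockout. The knockout values again lay between the wild-type values. The wild-type arrays were 1.92-fold apart and the knockout arrays 1.39-fold. As large a gap in wild type was found in 10.4% of all probe sets and in 3.83% of those in its signal bin. The log2 difference between genotypes was 0.00 (SE 0.40, 95% interval -1.05 to 1.06, limma adjusted p = 1.00). It was -0.47 without wild-type replicate 1 and 0.47 when wild-type replicate 2 was left out. Within-group SDs on the log2 scale were 0.562 for Dbp and 0.526 for Nr1d2, where the median probe set of their bin had 0.199.

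Tef, a bZIP factor of the same family as Dbp, behaved differently from it between the arrays. Its probe set 160117_at gave 4729 and 3018 in knockout and 5036 and 5430 in wild type. Both knockout arrays were below both wild-type arrays, with knockout replicate 2 the lowest, and the wild-type arrays were only 1.08-fold apart. The means were 3873 ± 1210 and 5233 ± 279, a log2 difference of -0.47 (SE 0.29, 95% interval -1.24 to 0.30, limma adjusted p = 0.814). It stayed negative without each array in turn and had the lowest unadjusted p of the 9 probe sets, 0.174 by limma. With median scaling the difference was -0.59, which passed 1.5-fold without overlap. Without knockout replicate 1 it was -0.79 and without knockout replicate 2 it was -0.15. The size of the Tef difference thus rested largely on knockout replicate 2.

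Bhlhe40 encodes DEC1, a basic helix-loop-helix repressor that competes at E-boxes. Its probe set 104701_at gave 2303 and 3176 in knockout and 2303 and 2195 in wild type. The groups were separated by the smallest of margins, since knockout replicate 1 at 2302.9 and wild-type replicate 1 at 2302.7 nearly coincided, and the higher knockout mean came from knockout replicate 2. The log2 difference was 0.27 (SE 0.25, 95% interval -0.39 to 0.92, limma adjusted p = 0.853).

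**Figure D2:**
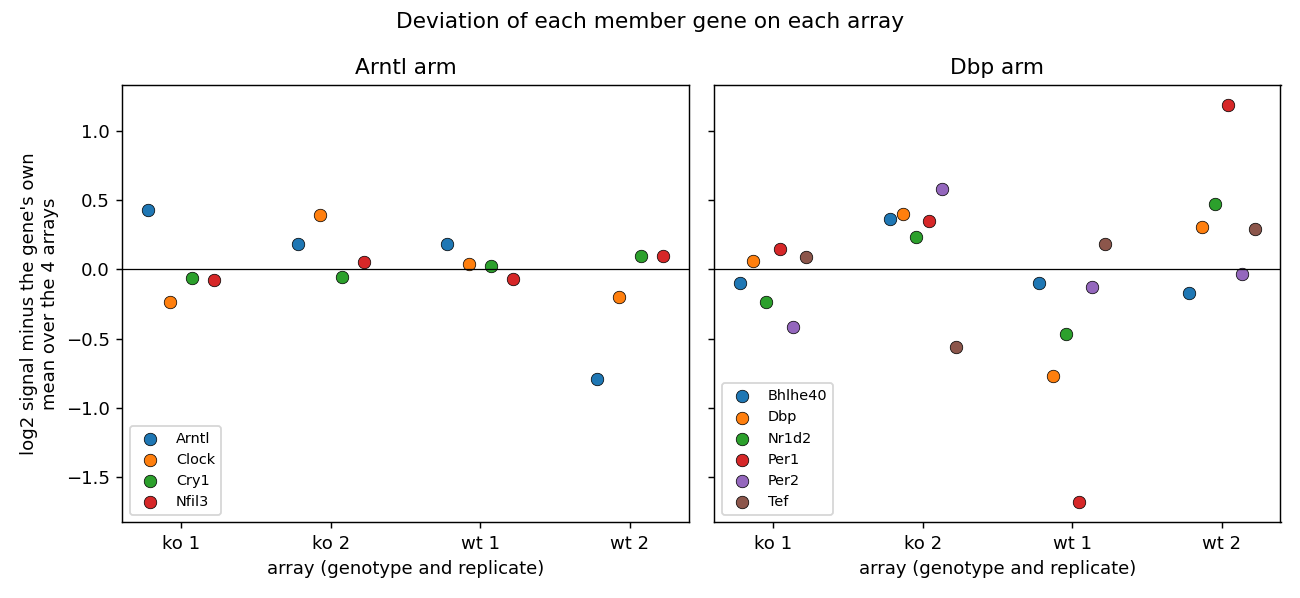
Log2 signal of the strongest probe set of each of the 10 genes minus that gene's mean over the 4 arrays, for the Arntl arm (left, 4 genes) and the Dbp arm (right, 6 genes). On wild-type replicate 1, 5 of the 6 Dbp-arm genes lie below 0, with Per1 at -1.68, and on wild-type replicate 2 Arntl is the lowest point of its arm at -0.79.

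In the Arntl arm, Arntl encodes BMAL1, the partner of CLOCK. Its probe set 102382_at gave 319 and 268.5 in knockout and 268.3 and 136.5 in wild type. Wild-type replicate 2 was the lowest array, at a 1.97-fold distance from wild-type replicate 1, whereas the knockout arrays and wild-type replicate 1 were close. The groups did not overlap, by a margin between 268.5 and 268.3, and without the filter the log2 difference was 0.61 (SE 0.44, limma adjusted p = 0.838). The mean of 248 was under the filter, so Arntl has no value in the main test. Wild-type replicate 2 thus had less Arntl signal than replicate 1 and more of Per1, Dbp and Nr1d2. Other members did not follow this order, since Cry1 and Nfil3 of the Arntl arm were slightly higher on replicate 2 and Bhlhe40 of the Dbp arm slightly lower.

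Clock, the histone acetyltransferase partner of ARNTL, oscillates weakly in most tissues. Its probe set 92257_at gave 705 and 1090.4 in knockout and 852 and 722 in wild type. The groups overlapped, with knockout replicate 2 the highest and knockout replicate 1 the lowest. The log2 difference was 0.16 (SE 0.30, 95% interval -0.62 to 0.94, limma adjusted p = 0.930), and it turned to -0.15 without knockout replicate 2.

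Cry1 encodes a cryptochrome, the stronger repressor of the loop. Its strongest probe set, 94420_f_at, gave 1199 and 1201 in knockout and 1268 and 1335 in wild type. Both knockout arrays were lower, and the values within each genotype were closer than for any other member kept, with a within-group SD of 0.0374 on the log2 scale. The log2 difference was small, at -0.12 (SE 0.19, 95% interval -0.63 to 0.40, limma adjusted p = 0.923). The suffix of this probe set marks probes shared with similar sequences. The other Cry1 probe sets were weak. 94421_r_at gave 134.5 and 195.5 in knockout and 13.0 and 9.80 in wild type, below the floor of 110, a signal at least 1.47-fold higher in knockout. 161225_r_at stayed below the floor on all 4 arrays, at 26.8 to 103.1. Both were under the filter.

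Nfil3 encodes E4BP4, a bZIP repressor that binds the D-box in opposition to DBP and TEF. Its stronger probe set, 101805_f_at, gave 1103 and 1209 in knockout and 1112 and 1243 in wild type. Like that of the strongest Cry1 probe set, its suffix marks probes shared with similar sequences. The weaker, 102955_at, gave 468 and 363 in knockout and 380 and 400 in wild type, just inside the filter with a mean of 403. The groups overlapped on both. The log2 differences were -0.03 (SE 0.21, limma adjusted p = 0.982) and 0.08 (SE 0.23, limma adjusted p = 0.949), with 95% intervals of -0.57 to 0.52 and -0.53 to 0.69.

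**Figure D3:**
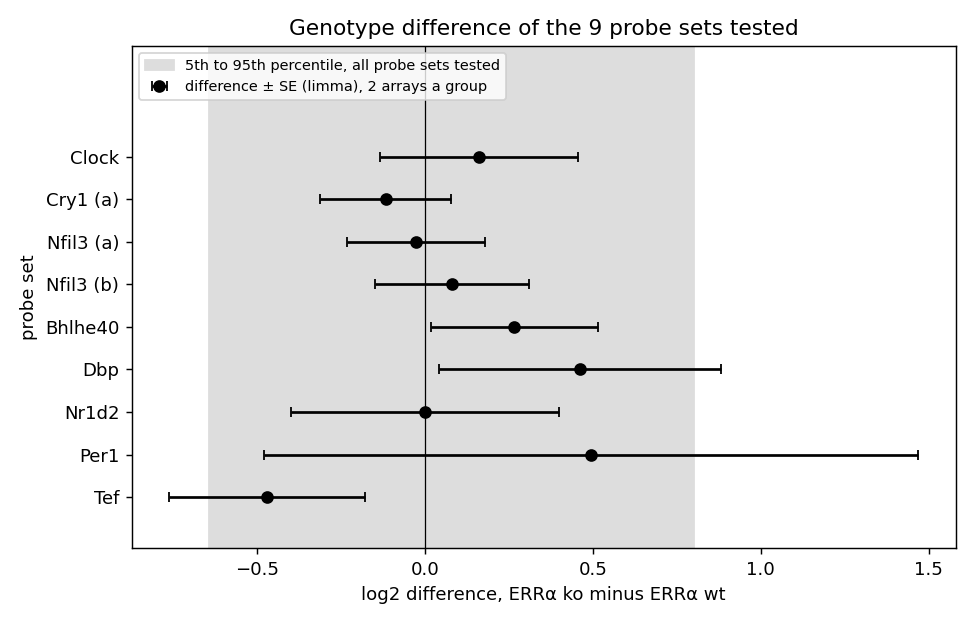
Log2 difference, knockout minus wild type, of the 9 probe sets kept (points) with its standard error from limma (bars, 2 arrays per group), beside the range from the 5th to the 95th percentile of all 7453 probe sets (grey, -0.64 to 0.80). All 9 points lie inside the grey range, and Per1 has the widest bar.

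By array, the members lay as follows. The share of all probe sets above or below their own mean on each array was not computed, so these counts have no background. On wild-type replicate 1 the Dbp arm lay low, with 5 of 6 genes below their own mean. The median deviation was -0.30 on the log2 scale, and Tef was the exception at 0.18. Bhlhe40 and Per2 were only slightly below, at -0.10 and -0.13, and Bhlhe40 was at -0.10 on knockout replicate 1 too. On wild-type replicate 2 the Dbp arm lay high in 4 of 6 genes, with a median of 0.30, Bhlhe40 at -0.17 and Per2 at -0.04. On knockout replicate 2 it lay high in 5 of 6 genes, with a median of 0.36 and Tef at -0.56. On knockout replicate 1 it was even, 3 genes above and 3 below, with a median of -0.02. The Arntl arm had medians of -0.07 and 0.12 on the knockout arrays and 0.03 and -0.05 on the wild-type arrays. It did not mirror the Dbp arm as a whole. Cry1 and Nfil3 hardly moved, and Clock was highest on knockout replicate 2 (0.40), where the Dbp arm was also high. Arntl lay opposite to the Dbp arm on wild-type replicates 1 and 2 (0.18 and -0.79). On knockout replicates 1 and 2 Arntl was above its own mean (0.43 and 0.18). The probe sets of Arntl and Per2 were under the filter.

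These gaps within a genotype were set beside those of all probe sets, each for a single pair of arrays and with no replicate check. Between the wild-type arrays 3 of the 9 probe sets kept, those of Per1, Dbp and Nr1d2, were at least 1.5-fold apart, against 22.1% of all. A gap as large as that of Per1 was found in 0.268% of its signal bin. For the other members kept, 56.3% (Clock) to 85.6% (Bhlhe40) of all probe sets had as large a wild-type gap. Between the knockout arrays 2 of 9, those of Clock and Tef, were that far apart, also against 22.1% of all. For so few probe sets these counts were near the background. From knockout replicate 1 the counts were 2 of 9 to wild-type replicate 1 and 2 of 9 to wild-type replicate 2 (23.0% and 24.1% of all). From knockout replicate 2 they were 4 of 9 and 3 of 9 (25.3% and 24.7% of all). Time of sampling is not in the labels used here, and its part in these gaps was not tested.

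**Figure D4:**
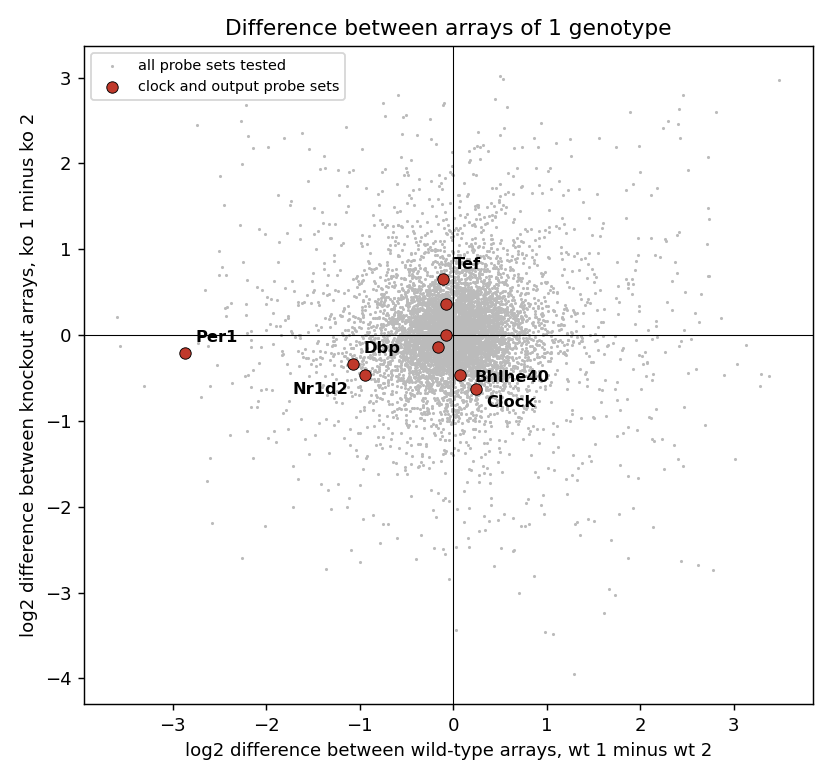
Log2 difference between the wild-type arrays (horizontal, replicate 1 minus 2) and between the knockout arrays (vertical, replicate 1 minus 2) for all 7453 probe sets kept (grey) and the 9 of clock and output genes (red). Per1 at -2.87, Dbp at -1.07 and Nr1d2 at -0.94 lie to the left, lower on wild-type replicate 1, while Clock and Tef are apart mainly on the vertical axis.

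Other genes of the loop and its regulators gave a mixed picture. Of 27 listed genes, 17 were on the array and 16 were kept, on 21 probe sets, of which 0 passed in either direction (limma adjusted p). The median log2 difference was -0.03, and 1 gene was at least 1.5-fold higher without overlap. This was Ppargc1a, the coactivator PGC-1α, which links the clock to energy metabolism, at 793 and 589 in knockout against 368 and 435 in wild type (log2 0.77, SE 0.25, limma adjusted p = 0.694). Nr1d1, which encodes REV-ERBα, gave 3368 and 4179 in knockout and 3544 and 2702 in wild type (log2 0.28, SE 0.25). Csnk1a1, a casein kinase that phosphorylates PER proteins, had a log2 difference of 0.22 (SE 0.23) on its stronger probe set, and Fbxw11, part of the ubiquitin ligase that removes PER, had 0.22 (SE 0.23) on 1 probe set and -0.08 on its stronger other.

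Not all genes of the Dbp phase followed Per1 and Dbp across the wild-type arrays. Nr1d1 was higher on wild-type replicate 1 (3544) than on wild-type replicate 2 (2702). Per3, the third PERIOD gene, singled out after its values were seen, likewise gave 1296 on wild-type replicate 1 and 715 on wild-type replicate 2, with 1313 and 1053 in knockout. Nampt, a direct target of CLOCK and ARNTL that makes a precursor of NAD, went with Per1, at 1454 on wild-type replicate 1 and 4328 on wild-type replicate 2, with 2609 and 3143 in knockout. It was also singled out after its values were seen. So was Cry2, the second cryptochrome, which gave 1140 and 953 in wild type and 1070.4 and 961 in knockout, with no array apart.

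Genes that share steroid and stress inputs with Per1 had in part the same order on the wild-type arrays. Of the 16 kept genes of that list other than Per1, 6 were at least 1.5-fold higher on wild-type replicate 2 than on wild-type replicate 1 and 2 were lower by that much, against 10.9% and 11.2% of all probe sets. They are named for that gap, after their values were seen. The list itself was drawn up with earlier results of these data known, so these shares are not an independent comparison. Dusp1, a phosphatase of MAP kinases, gave 5618 and 12806 on wild-type replicates 1 and 2, and 8215 and 7061 in knockout. Fkbp5, a chaperone of the glucocorticoid receptor and its target, gave 1272 and 2357 in wild type, and 2303 and 1189 in knockout. The others were Cebpb, Cebpd, Sgk1 and Zbtb16, with log2 differences of -1.12, -0.80, -0.67 and -0.71 for replicate 1 minus replicate 2. Those that went the other way were Tsc22d3, a glucocorticoid target, and Atf3, at 0.73 and 0.63. The summed signal of the list, Per1 included, was 40119 and 61581 on the wild-type arrays and 49957 and 43960 on the knockout arrays. The part of such inputs in the Per1 values was not tested.

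Between genotypes 0 of the 19 probe sets of that list passed in either direction (limma adjusted p), and the median log2 difference was -0.11. Fos, an immediate early factor, gave 870 and 524 in knockout against 153 and 213 in wild type (log2 1.90, SE 0.35, limma adjusted p = 0.656), and Junb had 0.72 (SE 0.22, limma adjusted p = 0.694). Egr1 and Ier2 had 0.49 and 0.30. The groups did not overlap on these Fos and Junb probe sets, but they did on the weaker Junb probe set kept, at 495 and 752 in knockout and 367 and 540.4 in wild type, as they did for Per1. They also overlapped on the weaker Fos probe set, under the filter, at 164.5 and 191 in knockout and 223.6 and 28.9 in wild type.

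Rhythmic output genes of the heart did not pass either. Of 23 listed genes, 15 were on the array and kept, on 17 probe sets, with 0 past the threshold in either direction (limma adjusted p) and a median log2 difference of 0.10. Kcnd2, a channel subunit of the transient outward current, gave 1300 and 809 in knockout against 368.5 and 753 in wild type (log2 0.96, SE 0.45, limma adjusted p = 0.767), lowest on wild-type replicate 1 like Per1. Its weaker probe set, under the filter, overlapped, at 290.9 and 386.4 in knockout and 104.9 and 342.8 in wild type. Pdk4, the kinase that shuts off pyruvate oxidation, gave 32119 and 43337 against 29640.5 and 21918 (log2 0.55, SE 0.28). Pnpla2, the adipose triglyceride lipase, had -0.42 (SE 0.23). Wee1, a cell cycle kinase under E-box control, gave 618 and 1112 in knockout and 486 and 658 in wild type (log2 0.55, SE 0.37).

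Markers of other cells were measured on the same arrays, and 0 of their probe sets passed (limma adjusted p). Of the atrial list, 5 of 6 genes were kept. All 5 met the 1.5-fold rule without overlap, with 4 higher in knockout and 1 lower, against 11.0% of all probe sets, and their summed signal was 31192 and 31931 in knockout and 35346 and 29170 in wild type. The lower gene was Clu, at 9841 and 11055 in knockout against 22402 and 18647, which offset the other 4 in the sum. Those were Myl4, Stard10, Myl7 and Nppa, with log2 differences of 1.18, 1.06, 0.79 and 0.72. The fibroblast list had 2 of 5 genes that far higher, with summed signals of 80149 and 83066 against 57782 and 68198. Of 4 smooth muscle genes 3 were kept, summing to 22309 and 14055 against 7714 and 6378. That sum rested on Acta2, at 18753 and 10916 against 4135 and 2909, while Tagln had a log2 difference of -0.08 and Myh11 gave 906 and 957 against 732 and 1192. Endothelial genes, 4 of 4 kept, summed to 8989 and 8998 against 13635 and 10333. That sum rested on Tie1 and Cdh5, with log2 differences of -0.57 and -0.54. Kdr had 0.09, and Pecam1 overlapped, at 702 and 1573 against 1274 and 1253. Of 4 adipocyte genes on the array 2 were kept, summing to 2118 and 2192 against 1805 and 1745. Of these Adipoq had a log2 difference of 1.44 and Fabp4 of -0.02. Of 4 erythroid genes on the array 4 were kept, summing to 159136 and 224658 against 205115 and 149534. Car2 was the 1 that met the 1.5-fold rule, at 1524 and 1351.5 against 697 and 650. Slc4a1, Hba-a1 and Alas2 had log2 differences of -0.27, 0.11 and 0.08. Of 4 immune genes 3 were kept, and 0 met the 1.5-fold rule. No list had a gene below the floor on every array and every probe set. Their part in the differences of clock genes between genotypes was not tested.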

How the data were processed

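Ventricular RNA of 2 ERRa ko and 2 ERRa wt samples was measured on 4 one-colour arrays, per the labels. The deposited values are 1 linear intensity per probe set, and the mean after trimming 2% from each end was 1501 on every array. Medians were 572 and 570.4 (knockout) and 532 and 517 (wild type). The software, summary method, background correction and build are not given in the sources used here. The values are uncentred. Their equal trimmed means show that the arrays were scaled to a common level, but the scaling step itself is not described in these sources.

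Control probe sets (66) were left out. Symbols came from the platform annotation: 10833 probe sets had 1 symbol, 396 several and 1193 none. Signals below 110, the 20th percentile, were set to that floor, log2 was taken, and probe sets with a mean under the 40th percentile (350.6) were dropped. The test was lmFit and eBayes of limma 3.58.1 (R 4.3.3) on genotype, with Benjamini-Hochberg adjustment over 7453 probe sets at 0.05. The limma step was tested on simulated data, and its power for differences as small as those of the members is not given here. An exact permutation test of 2 against 2 cannot go below 0.333.

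Members and lists were chosen with earlier results of these data known. All members are named. Of each other list, up to 4 genes of lowest p are named, and others are marked. Same-numbered arrays did not deviate together (correlation 0.0113 over probe sets), so the comparison was unpaired.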

Additional observations from a re-analysis of the deposited data

How the results depend on the processing

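With 2 arrays a group the intervals of the members were wide, and the number of arrays limits the precision. Under all 13 alternatives run, 0 member probe sets passed the threshold, the replicate block included (0), and apart from the fit without suffixed probe sets the lowest adjusted p of any member was 0.542, for Per1 without wild-type replicate 2 (limma). Over all probe sets the count past the threshold was 1 and became 0 with the floor at the 5th or 40th percentile, with no filter, without probe sets with cross-hybridization suffixes and with the replicate block, 2 with the stricter filter and with the trend and robust prior, and 0 to 0 when leaving out 1 array. The count of members at least 1.5-fold apart without overlap was 0 and became 1 with no filter (Arntl) and with median scaling (Tef). When leaving out 1 array it ran from 0 to 2, from Dbp and Tef without knockout replicate 1, Per1 when wild-type replicate 1 was left out, and Dbp and Per1 when wild-type replicate 2 was. The members' median log2 difference ran from -0.13 to 0.36 when leaving out 1 array.

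Signs turned for 6 probe sets. When leaving out 1 array, the log2 difference ran from -0.94 to 1.93 for Per1, -0.075 to 1.00 for Dbp, -0.47 to 0.47 for Nr1d2, -0.15 to 0.48 for Clock, -0.11 to 0.054 for the stronger Nfil3 probe set and -0.10 to 0.26 for the weaker. The values that turned were those of Per1 and Dbp without wild-type replicate 1 (-0.94 and -0.075), of Nr1d2 without that array (-0.47) or knockout replicate 2 (-0.23), of Clock without knockout replicate 2 (-0.15), of the stronger Nfil3 probe set without knockout replicate 1 (0.040) or wild-type replicate 2 (0.054), and of the weaker without knockout replicate 1 (-0.10). After quantile normalization and median scaling, Nr1d2 had -0.0044 and -0.12, and the weaker Nfil3 probe set -0.047 and -0.044. The cause was not tested. Tef, Cry1 and Bhlhe40 kept their sign in the 12 alternatives run for each, and Tef ran from -0.79 to -0.15.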

Other observations

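Outside the clock members, wide wild-type gaps were also measured for Nr4a1 and Nppb, both singled out after their values were seen. Nr4a1, an orphan nuclear receptor with immediate early and rhythmic expression, gave 390 on wild-type replicate 1 and 2521 on wild-type replicate 2, beside 1488 and 2462 in knockout, the same order of arrays within wild type as Per1. Nppb, which encodes the natriuretic peptide of stretched ventricle, gave 87183 on wild-type replicate 1, 14065 on wild-type replicate 2, and 20537 and 18470 in knockout.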
